A study of Mus musculus with 8 samples.

Results

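Kupffer cells, the resident macrophages of the liver, sinusoidal endothelial cells, which line its capillaries, and stellate cells, which store vitamin A and lay down matrix when activated, are the main populations that share the hepatic lobule with hepatocytes. The 35 marker genes described here were taken by symbol from a list of known markers, 12 for Kupffer cells, 11 for endothelial cells and 12 for stellate cells, and were located among the 35275 genes of a count table through their Ensembl identifiers. Because they are transcribed mainly outside hepatocytes, their levels in RNA of whole liver give a view of the non-hepatocyte content of each sample.

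The samples were livers of 9-week-old C57BL/6 mice deprived of food for 24 h, 4 of genotype Pcx L-/- and 4 of genotype WT. Both genotypes carry Pcx alleles with exon 10 flanked by loxP sites. The Pcx L-/- mice also carry Cre recombinase under the albumin promoter, which is active in hepatocytes, so pyruvate carboxylase was removed from hepatocytes and not by design from the cells marked here, and the WT mice were their Pcx f/f littermates. Each library was a separate mouse, and all 8 were sequenced as whole tissue, in which fewer cells of a type and less RNA per cell cannot be told apart.

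Kupffer cells sit in the sinusoid, take up particles, aged red blood cells and complement-coated material, and depend on signals from the endothelial and stellate cells beneath them. The sinusoidal endothelium is fenestrated, lacks a continuous basement membrane and clears macromolecules through scavenger receptors such as the stabilins. Quiescent stellate cells hold retinyl esters made by Lrat, and on injury they take on a myofibroblast form in which smooth muscle actin and fibrillar collagens are produced.

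Pcx itself served as the check of the labels. Its normalized counts, which are read counts scaled to a common effective library size, were 14371 to 22059 in the WT mice and 556 to 758 in the Pcx L-/- mice, a log2 fold change of -4.80. The libraries held 12016242 to 20023108 reads assigned to genes, and Spearman correlations between mice of a genotype lay between 0.976 and 0.993. Across the 13168 genes that passed the filter on low counts, 27.6% were past an adjusted p of 0.05 by edgeR's quasi-likelihood test, 14.1% higher and 13.5% lower in Pcx L-/- liver, and 27.6% had no overlap between the 4 mice of each genotype. Hepatocyte genes were among those that moved, with 6 of 12 lower, none higher and a median log2 fold change of -0.60, and Apoa1, the main apolipoprotein of high density lipoprotein, fell by 1.04 on the log2 scale. That count depended on the processing: of the 6 genes, Apoa1 and Apoh kept the call in all 18 alternatives, whereas the calls of Apob, Serpina1a, Fgb and Trf were lost in 10, 8, 6 and 10 of them.

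Against that background the marker genes as a group moved little. Of the 34 members that were tested, 1 was higher in Pcx L-/- liver (Cd68) and 1 was lower (Acta2), or 5.88% against 27.6% of all genes tested, and none of the 34 separated the genotypes without overlap. The log2 fold change lay within 0.5 of 0 for 30 of the 34 members, whereas 71.5% of all genes tested did so, and its median size was 0.13 for the members and 0.30 for all genes. The standard errors were of similar size, with a median of 0.18 for the members and 0.17 for all genes. For 29 of the 34 the 95% interval of the difference lay within 1 log2 unit of 0 on both sides, against 71.8% of all genes. The other 5 intervals, those of Cd68, Marco, Reln, Col1a1 and Acta2, reached past 1 log2 unit, a 2-fold difference.

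**Figure D1:**
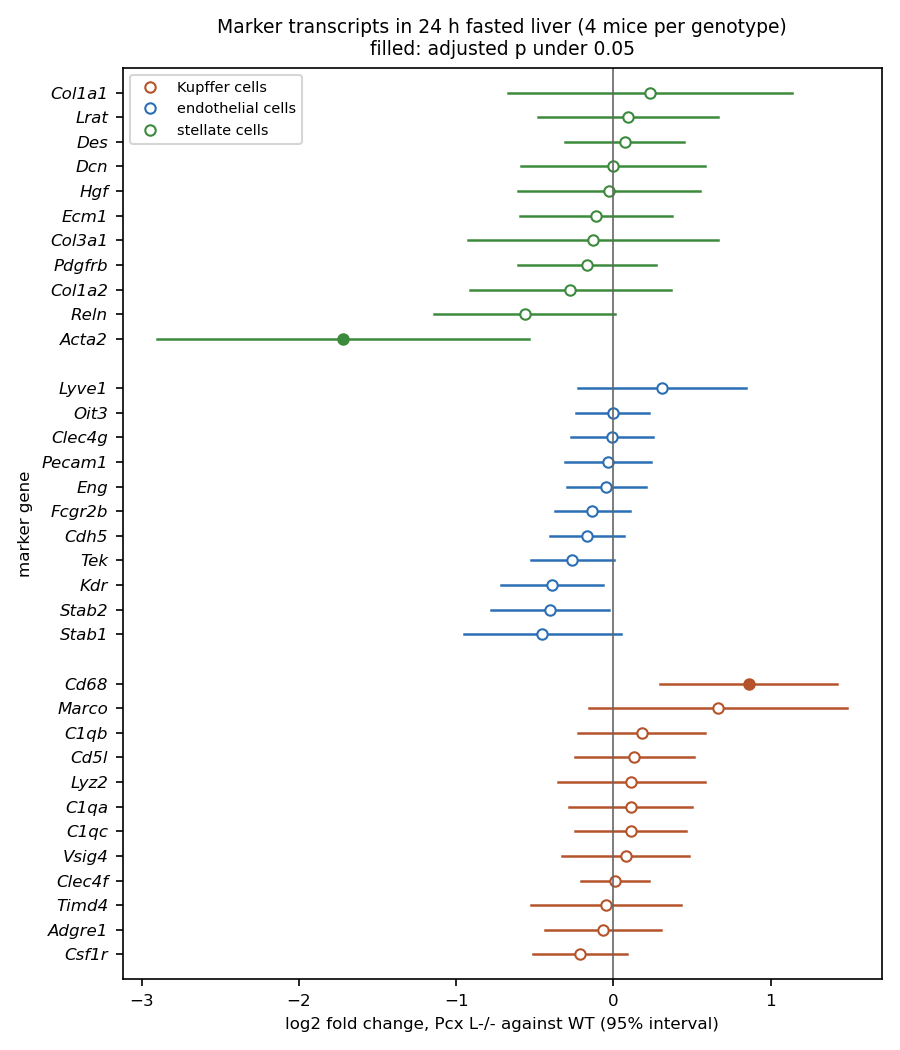
Log2 fold change of each of the 34 tested marker genes in Pcx L-/- against WT liver (x axis, log2 units), with the 95% interval from edgeR's quasi-likelihood fit as a horizontal line; colours give the cell class and filled points passed an adjusted p of 0.05. Only Cd68 (0.86) and Acta2 (-1.72) are filled, and the intervals of most other genes cross 0.

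By class, the 12 Kupffer members had a median log2 fold change of 0.11, the 11 endothelial members -0.13 and the 11 tested stellate members -0.11, beside -0.01 over all genes tested. The signs of the endothelial and stellate medians depended on the scaling. When reads were scaled to library size alone, the median of all genes rose to 0.28 and the class medians to 0.39, 0.15 and 0.18. Under both scalings the Kupffer median lay above that of all genes and the other 2 class medians lay below it. Of the 34 members, 15 were above the median of all genes with library size alone, as with size factors of the DESeq2 type. The scaling factors used here differed by genotype, at 0.833 to 0.942 in WT and 0.970 to 1.16 in Pcx L-/- mice. On the scale of normalized counts the 12 Kupffer members summed to 7994 ± 1569 in WT and 8550 ± 842 in Pcx L-/- liver (SD, n = 4). The endothelial sum was 10269 ± 1499 in WT and 8865 ± 697 in Pcx L-/- liver, and the stellate sum was 7558 ± 1715 and 6933 ± 1934. As a share of all reads assigned to genes, the Kupffer members took 0.0429% ± 0.0101 in WT and 0.0559% ± 0.00924 in Pcx L-/- liver (SD, n = 4). The endothelial share was 0.0545% ± 0.00510 and 0.0580% ± 0.00887, and the stellate share 0.0406% ± 0.0108 and 0.0459% ± 0.0152, so that the means of these 2 classes were higher in Pcx L-/- liver as shares and lower as normalized counts. In each of the 3 classes the ranges of the summed normalized counts overlapped between genotypes.

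Promoter sequences are shown for the 2 members past the threshold and for a pair of neighbouring complement genes of the Kupffer class. Each is the 250 bases before the RefSeq start site on GRCm38.p6, written 5′ to 3′ on the strand of the gene. Capitals mark GAGGAA, the core bound by PU.1, the transcription factor encoded by Spi1 that macrophages require, or the same site read from the other strand as TTCCTC.
Cd68 (chr11:69666171-69666420, minus strand): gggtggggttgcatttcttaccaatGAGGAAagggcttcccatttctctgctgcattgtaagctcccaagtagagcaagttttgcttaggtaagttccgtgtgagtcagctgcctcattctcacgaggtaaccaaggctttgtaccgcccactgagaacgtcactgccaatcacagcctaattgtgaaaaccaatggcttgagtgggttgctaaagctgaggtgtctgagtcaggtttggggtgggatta
C1qb (chr4:136886201-136886450, minus strand): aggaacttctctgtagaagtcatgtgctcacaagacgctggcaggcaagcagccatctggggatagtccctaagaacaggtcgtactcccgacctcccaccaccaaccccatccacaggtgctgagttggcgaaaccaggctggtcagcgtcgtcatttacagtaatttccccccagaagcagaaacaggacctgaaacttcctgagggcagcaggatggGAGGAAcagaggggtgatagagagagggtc
C1qc (chr4:136892915-136893164, minus strand): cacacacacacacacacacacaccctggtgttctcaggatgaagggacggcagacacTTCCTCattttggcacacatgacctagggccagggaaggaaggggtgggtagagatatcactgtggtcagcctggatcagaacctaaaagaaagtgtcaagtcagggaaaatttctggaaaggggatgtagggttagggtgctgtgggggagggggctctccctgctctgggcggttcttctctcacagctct
Acta2 (chr19:34255374-34255623, minus strand): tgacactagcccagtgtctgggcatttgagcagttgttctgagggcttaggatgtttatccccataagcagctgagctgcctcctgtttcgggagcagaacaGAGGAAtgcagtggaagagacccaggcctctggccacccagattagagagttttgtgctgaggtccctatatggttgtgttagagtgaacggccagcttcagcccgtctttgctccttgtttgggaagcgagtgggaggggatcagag
The hexamer lay 225 bases before the start in Cd68, 30 in C1qb, 193 in C1qc and 148 in Acta2. Of the 25 members with a RefSeq promoter, 10 held it, namely 6 of 9 Kupffer members (Marco, Cd5l, C1qb, C1qc, Cd68 and Vsig4), 2 of 7 endothelial members (Eng and Stab1) and 2 of 9 stellate members (Hgf and Acta2). Both strands were searched, and 23.3% of all 32851 promoters of this length held it. The match describes the letters of the window and is not evidence of binding.

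Among the Kupffer members, Cd68 was the one gene past the threshold. Cd68 (ENSMUSG00000018774, chr11:69664213-69666153) encodes macrosialin, a lysosomal glycoprotein of macrophages. Its normalized counts were 152, 137, 137 and 78.1 in WT replicates 1 to 4 and 137, 227, 323 and 238 in Pcx L-/- replicates 1 to 4. Replicate 1 of the Pcx L-/- mice lay within the WT range and the other 3 lay above it. The log2 fold change was 0.86 ± 0.26 (SE, n = 4 per genotype), with an adjusted p of 0.0289 by edgeR's quasi-likelihood test. The call was lost when any one of 5 mice was left out (WT replicate 3 or 4, or Pcx L-/- replicate 2, 3 or 4) or when the series of mouse numbers described later was a term. Over 18 alternatives its adjusted p ran from 0.00323 to 0.0917.

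The genes that define the Kupffer cell by its identity and surface receptors did not pass the test. Clec4f, a C-type lectin made almost only by Kupffer cells, had normalized counts of 1533, 1596, 1435 and 1493 in the WT mice and 1366, 1595, 1509 and 1635 in the Pcx L-/- mice. The WT range lay within the Pcx L-/- range, and its log2 fold change of 0.01 had a 95% interval from -0.21 to 0.23, the narrowest of the class. Cd5l, a secreted scavenger protein of macrophages, had the highest level of the class per length, at 41.4 ± 11.2 FPKM in WT liver (SD, n = 4). Its normalized counts were 1934, 1833, 1129 and 1390 in WT and 1581, 1611, 2098 and 1612 in Pcx L-/- mice. The highest and the lowest of the 8 were thus a Pcx L-/- and a WT mouse, but 2 WT mice exceeded the other 3 Pcx L-/- mice, and the log2 fold change was 0.13.

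Csf1r, the receptor for the growth factor on which tissue macrophages depend, had the lowest log2 fold change of the class, -0.21, with an adjusted p of 0.280. Its normalized counts were 1274, 1239, 833 and 1220 in WT and 913, 1060, 1009 and 959 in Pcx L-/- mice. WT replicate 3 was the lowest of all 8, and the other 3 WT mice exceeded every Pcx L-/- mouse. The gene overlaps Hmgxb3 on the opposite strand, and reads of the pair could not be separated if the counting ignored strand. Of the other identity genes, Adgre1 (the F4/80 antigen) had a log2 fold change of -0.06, Vsig4 (a complement receptor) 0.08 and Timd4 (a receptor for phosphatidylserine) -0.05. Marco, a scavenger receptor, was the most variable of the class, with normalized counts from 146 to 515 in WT and from 326 to 803 in Pcx L-/- mice and a log2 fold change of 0.67 with an interval from -0.15 to 1.49.

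The 3 chains of complement C1q lie next to each other on chromosome 4. C1qa had normalized counts of 703, 761, 652 and 385 in WT and 637, 618, 727 and 727 in Pcx L-/- mice, so that WT replicate 4 stood below the other 7. The same mouse was the lowest of 8 for C1qb (395) and C1qc (475). The log2 fold changes were 0.11, 0.18 and 0.11 for C1qa, C1qb and C1qc, and none passed the test. Lyz2, the lysozyme of macrophages, had normalized counts from 450 to 980 in WT and from 711 to 886 in Pcx L-/- mice, with a log2 fold change of 0.11, although reads shared with its near copy Lyz1 make the level uncertain. In WT liver C1qa stood at 32.5 FPKM, Clec4f at 32.7 and Lyz2 at 30.5, well above Timd4 at 2.64.

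**Figure D2:**
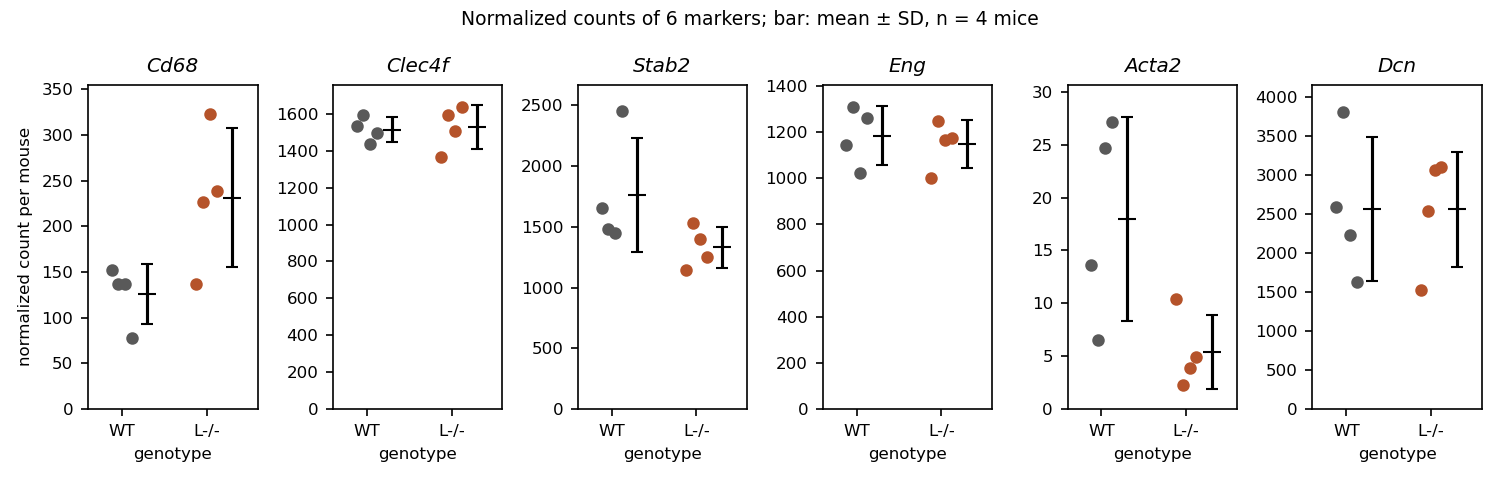
Normalized counts (y axis, from 0) of 6 marker genes in each WT (grey) and Pcx L-/- (orange) mouse, with mean and SD over 4 mice as the black bar; replicates 1 to 4 run from left to right. Cd68 lies higher and Acta2 lower in most Pcx L-/- mice, with overlap between the genotypes in both, whereas Clec4f, Eng and Dcn cover the same range in both genotypes.

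None of the 11 endothelial members passed the test, and 10 of the 11 had a log2 fold change below 0 with the scaling used here (TMM). The smallest adjusted p was 0.0732, for Kdr, and 2 members, Kdr and Stab2, had an unadjusted p under 0.05 by edgeR's quasi-likelihood test. Kdr, the main receptor for vascular endothelial growth factor A, had normalized counts from 1195 to 1916 in WT and from 1035 to 1286 in Pcx L-/- mice and a log2 fold change of -0.39 ± 0.15 (SE, n = 4 per genotype). Stab2, a scavenger receptor for hyaluronan, ranged from 1452 to 2454 in WT and from 1147 to 1531 in Pcx L-/- mice, with a log2 fold change of -0.40. In both genes 1 Pcx L-/- mouse reached into the WT range and the other 3 lay below it.

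Stab1, the second stabilin, had the lowest log2 fold change of the class, -0.45 ± 0.23 (SE, n = 4 per genotype), with an adjusted p of 0.168. Its normalized counts were 1649, 1244, 1682 and 2929 in WT and 1189, 1554, 1543 and 1194 in Pcx L-/- mice. WT replicate 4 stood far above the other 7, and of the Pcx L-/- mice, replicates 1 and 4 lay below every WT mouse and replicates 2 and 3 within the WT range. Lyve1, a hyaluronan receptor, had the highest log2 fold change of the class, 0.31, with normalized counts of 348, 815, 462 and 468 in WT and 510, 575, 652 and 862 in Pcx L-/- mice. WT replicate 2 was the second highest of the 8. Without that mouse Lyve1 passed the threshold, with an adjusted p of 0.0408 by edgeR's quasi-likelihood test.

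The endothelial members with the highest levels per length in WT liver were Clec4g at 21.7 FPKM, Fcgr2b at 20.2 and Eng at 17.7. Clec4g, a C-type lectin of sinusoidal endothelium, had normalized counts of 625, 610, 646 and 451 in WT and 587, 610, 564.6 and 563.6 in Pcx L-/- mice. Its log2 fold change was -0.01, with an interval from -0.27 to 0.26. Fcgr2b, the inhibitory Fc receptor that clears immune complexes from blood, had normalized counts of 901, 930, 766 and 799 in WT and 761, 768, 869 and 700 in Pcx L-/- mice, and its log2 fold change was -0.13. Eng, a co-receptor for bone morphogenetic proteins, had normalized counts of 1142, 1307, 1024 and 1263 in WT and 1000, 1250, 1166 and 1176 in Pcx L-/- mice, and its log2 fold change was -0.04. For Clec4g all 4 Pcx L-/- mice lay within the WT range, and for the other 2 genes the ranges overlapped. Eng overlaps Fpgs on the opposite strand, which itself had 19363 reads over the 8 libraries, and Stab1 overlaps Nt5dc2 in the same way.

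The other endothelial members code for junction, receptor and secreted proteins, and none passed the test. Pecam1, an adhesion molecule of all endothelia, had a log2 fold change of -0.03, Cdh5, the cadherin of endothelial junctions, -0.17, Tek, the angiopoietin receptor, -0.26 and Oit3, a secreted protein of sinusoidal endothelium, -0.004. The interval that reached furthest from 0 among these 4 genes was that of Tek, from -0.52 to 0.004.

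Of the stellate members, Acta2 was the gene past the threshold and also the one with the fewest reads of those tested. Acta2 (ENSMUSG00000035783, chr19:34241090-34255590) encodes smooth muscle actin, which marks activated stellate cells but also the muscle of vessel walls. Its normalized counts were 13.7, 6.5, 24.7 and 27.2 in WT and 10.4, 2.29, 3.89 and 4.96 in Pcx L-/- mice. WT replicate 2 fell inside the Pcx L-/- range, and all 8 libraries together held 84 reads of the gene. The log2 fold change was -1.72 ± 0.54 (SE, n = 4 per genotype), with a 95% interval from -2.90 to -0.54 and an adjusted p of 0.0352 by edgeR's quasi-likelihood test. The call was lost when any one of 6 mice was left out, all but WT replicate 2 and Pcx L-/- replicate 1, and over 17 alternatives the adjusted p ran from 0.0111 to 0.108.

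The fibrillar collagens, which activated stellate cells secrete, did not pass the test in either direction. Col1a1 had the highest log2 fold change of the class, 0.23 with an interval from -0.67 to 1.14, and normalized counts of 58.3, 76.9, 39.8 and 98.4 in WT and 41.5, 41.2, 143 and 90.3 in Pcx L-/- mice. Pcx L-/- replicate 3 was the highest of the 8 and replicates 1 and 2 were near the lowest. Col1a2 had a log2 fold change of -0.27 and Col3a1 of -0.13, with the same mouse the highest of the Pcx L-/- group at 298 and 337 normalized counts. Timp1, the inhibitor of matrix metalloproteinases that rises in fibrosis, did not pass the filter on low counts, with 13 reads in all. Its normalized counts were 0, 2.17, 2.15 and 0 in WT and 1.89, 1.53, 3.89 and 0 in Pcx L-/- mice.

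The stellate members with the highest levels per length were Ecm1 and Dcn, both secreted matrix proteins, at 77.3 and 73.4 FPKM in WT liver, followed by Reln, a secreted glycoprotein of stellate cells and neurons, at 5.01 FPKM. Ecm1 had normalized counts of 2848, 3488, 2741 and 1816 in WT and 1631, 2605, 2932 and 2937 in Pcx L-/- mice, with a log2 fold change of -0.11. Dcn had normalized counts of 2583, 3807, 2231 and 1626 in WT and 1529, 2536, 3056 and 3103 in Pcx L-/- mice, with a log2 fold change of -0.004. In both genes the lowest mouse was Pcx L-/- replicate 1, the next lowest WT replicate 4 and the highest WT replicate 2. Reln had normalized counts of 1051, 1146, 798 and 1426 in WT and 366, 891, 938 and 789 in Pcx L-/- mice, and its log2 fold change of -0.56 had an adjusted p of 0.135.

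The vitamin A gene Lrat had a log2 fold change of 0.09, the intermediate filament gene Des 0.07, the receptor gene Pdgfrb -0.17 and the growth factor gene Hgf -0.03, none past the threshold. Des was the least variable of the class, with normalized counts from 57.4 to 71.3 in WT and from 59.4 to 79.4 in Pcx L-/- mice. Lrat, Hgf and Pdgfrb each had their lowest value in Pcx L-/- replicate 1, at 133, 107 and 86.8 normalized counts.

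Single mice stood high or low across much of a class. In 8 of 11 stellate and 7 of 11 endothelial members the lowest of the 8 mice was Pcx L-/- replicate 1, which was the lowest for 8.93% of all genes tested. WT replicate 2 was the highest in 13 of 34 members, against 14.3% of all genes. WT replicate 4 was the lowest in 7 of 12 Kupffer members, and WT replicate 3 in 4 more, against 22.9% and 9.90% of all genes. Measured as the mean log2 difference from the WT mean over the members of a class, stellate members stood at -0.77 in Pcx L-/- replicate 1 and between -0.39 and 0.14 in the other 3 Pcx L-/- mice. Pcx L-/- replicate 1 also differed in blood: its 6 tested red blood cell genes took 0.396% of reads, against 0.0261% to 0.106% in the other 7 mice, and each of the 6 was highest in it. Its hepatocyte genes stood at -0.18 on the same scale, against -0.66 to -0.79 in the other Pcx L-/- mice. The part of blood content in the values of that mouse was not tested. Without that mouse 2 members passed the threshold, and the stellate median log2 fold change moved from -0.11 to 0.06.

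**Figure D3:**
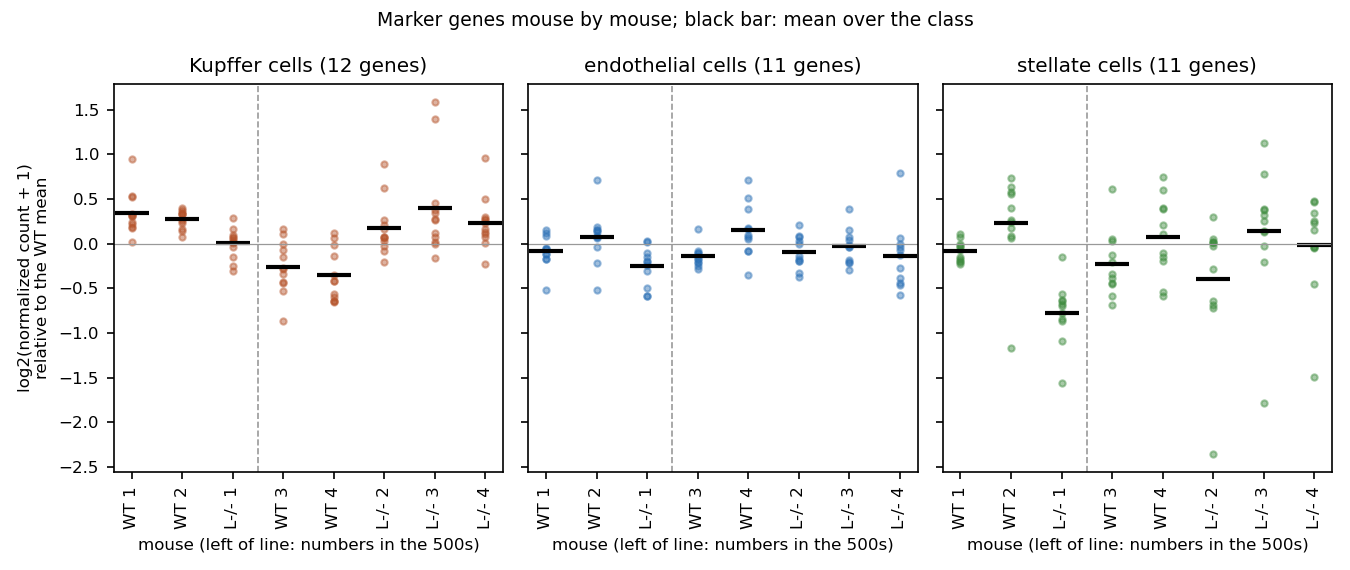
Each point is 1 marker gene in 1 mouse, as log2(normalized count + 1) relative to the mean of the 4 WT mice (y axis), in 3 panels by cell class; the black bar is the mean over the class, and mice left of the dashed line carry numbers in the 500s. Kupffer members are low in WT 3 and WT 4, and stellate members are low in Pcx L-/- 1.

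The labels number the mice, and the numbers fall into 2 series, the 500s (WT replicates 1 and 2, Pcx L-/- replicate 1) and the 800s (WT replicates 3 and 4, Pcx L-/- replicates 2 to 4). All 12 Kupffer members were lower in the WT mice of the 800s than in those of the 500s, by a median of 0.60 on the log2 scale, where the median of all genes differed by -0.01. Within the 500s all 12 were lower in the Pcx L-/- mouse than in the mean of the WT mice (median -0.30), and within the 800s all 12 were higher in Pcx L-/- mice (median 0.49). Stellate members showed a median of -0.98 in the 500s and 0.34 in the 800s. Endothelial members showed -0.27, with 11 of 11 below 0, and -0.01, with 6 of 11 below 0. The interaction of genotype and number series, in a fit added after these values were seen, passed an adjusted p of 0.05 for 0 of 34 members by edgeR's quasi-likelihood test, against 0.289% of all genes. At an unadjusted p under 0.05 it counted 16 of the 34 members, 8 Kupffer and 8 stellate, and 14.9% of all genes. The smallest adjusted p was 0.0706, for Dcn. Only 1 Pcx L-/- mouse carried a number in the 500s, so that among the Pcx L-/- mice the series cannot be told apart from that mouse.

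WT replicate 4, the library with the fewest reads, stood apart by gene length. Among the 34 tested members, the difference between this mouse and the mean of the other 3 WT mice was above 0 in 9 of the 11 genes longer than 4000 bases, with a median of 0.52 on the log2 scale. It was above 0 in 7 of the other 23, with a median of -0.19. Across the 34 genes this difference from the mean of the other 3 WT mice and log2 gene length had a Pearson r of 0.78. Across all genes tested r was 0.36, and both values describe genes that share 1 library. The short Kupffer genes C1qa, C1qb, Cd68 and Lyz2 were low in it and the long genes Stab1, Stab2, Reln and Kdr were high. With an offset for gene length, chosen after this was seen, the median log2 fold change was -0.01 for Kupffer, -0.15 for endothelial and -0.07 for stellate members, and Cd68 and Acta2 stayed past the threshold. Without WT replicate 4 no member passed it, and the same held without Pcx L-/- replicate 2, 3 or 4.

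**Figure D4:**
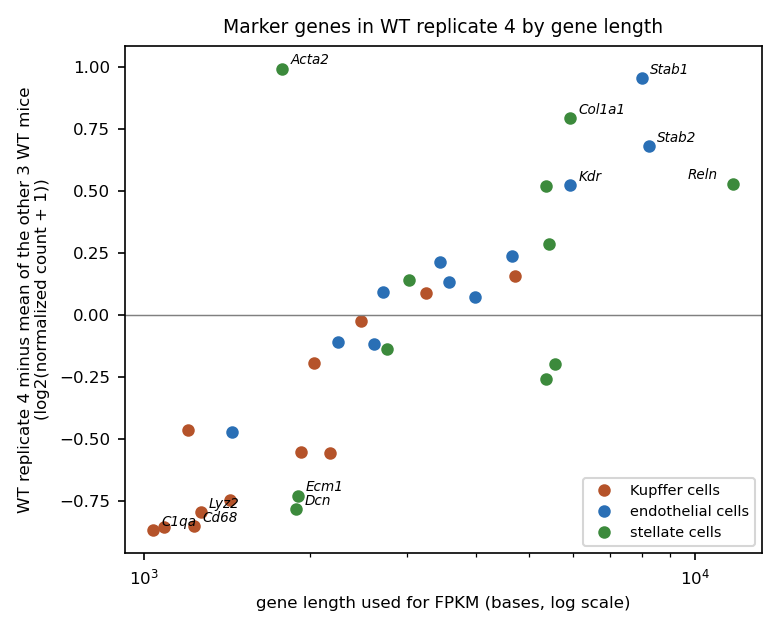
Difference between WT replicate 4 and the mean of the other 3 WT mice (y axis, log2 of normalized count + 1) against the gene length used for FPKM (x axis, bases, log scale), for the 34 tested marker genes coloured by cell class. Of the 11 genes longer than 4000 bases 9 lie above 0, and of the other 23 genes 7 do, the highest of them Acta2 at 0.99.

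Further genes of the same cells, listed from general knowledge but with earlier results of these data known, gave a wider view. Of 26 other Kupffer cell genes, 1 was higher and 5 were lower in Pcx L-/- liver (23.1%, against 27.6% of all genes), with a median log2 fold change of -0.05. The higher gene was Cd14, the lipopolysaccharide co-receptor, at 0.73. Among the lower genes were the iron exporter Slc40a1 (-0.65), the complement component C6 (-1.82), the lysosomal protease Ctsc (-0.73) and the efferocytosis receptor Mertk (-0.65). Hepatocytes also make C6. The cell of origin was not measured for any gene of this list, so these calls cannot be assigned to Kupffer cells. Of 16 monocyte and recruited macrophage genes, 11 were tested and 1 was higher (9.09%, against 14.1% of all genes higher), the chemokine Ccl6 at 0.51. The rest did not pass the filter on low counts. Among these, Chil3 had normalized counts from 1.70 to 3.25 in WT and from 7.55 to 46.7 in Pcx L-/- mice, on 108 reads in all. The ranges of the other untested genes overlapped between genotypes. The median of the 11 was 0.45, with 9 of 11 above 0. Pcx L-/- replicate 3 stood apart in this list: it was the highest of the 8 mice in 7 of the 11 genes, and its mean log2 difference from the WT mean was 0.95, while the other 3 Pcx L-/- mice, at 0.17 to 0.30, lay within the WT range of -0.49 to 0.45. The call of Cd14 was lost in 8 of 18 alternatives and that of Ccl6 in 10, while those of Slc40a1, C6, Ctsc and Mertk held in all 18.

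Of 28 other sinusoidal endothelial genes, 3 were lower and none higher (10.7%, against 13.5% of all genes lower), with a median of -0.26. These were Flt1, a receptor for vascular endothelial growth factor (-0.63), the transcription factor Maf (-0.46) and the receptor tyrosine kinase Tie1 (-0.50). WT replicate 4 was the highest of all mice in 16 of the 28 genes, against 22.7% of all genes tested. Without that mouse Tie1 lost its call, and Flt1 and Maf kept theirs. None of Flt1, Maf and Tie1 passed the threshold when reads were scaled to library size alone, which moved the median of all genes to 0.28. Of 11 other vascular endothelial genes tested, none passed the threshold by edgeR's quasi-likelihood test and 2 had an unadjusted p under 0.05. Of 22 other stellate genes tested, the peptide receptor Vipr1 was lower (-0.38) and Angptl6, a secreted angiopoietin-like protein, was higher (0.94), or 9.09% called against 27.6% of all genes. The call of Vipr1 was lost in 11 of 18 alternatives, among them scaling to library size and that of Angptl6 in 1, without Pcx L-/- replicate 3. Of 26 matrix and fibrogenic genes, 2 were lower (7.69%, against 13.5% of all genes), fibronectin Fn1 (-1.20), which hepatocytes also secrete, and the metalloproteinase inhibitor Timp3 (-0.57). The call of Fn1 held in all 18 alternatives and that of Timp3 was lost in 7, scaling to library size included.

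Among 26 tested ligands and receptors that connect these cells with hepatocytes, 4 were lower and none higher (15.4%, near the 13.5% of all genes that were lower). They were Met, the receptor for the Hgf that stellate cells make (-0.50), Hgfac, the protease that activates Hgf (-0.98), the receptor Tgfbr2 (-0.45) and the chemokine Cxcl12 (-1.20). The calls of Hgfac and Cxcl12 held in all 18 alternatives, and those of Met and Tgfbr2 were lost in 6 and 9, scaling to library size included. Hgf itself did not pass the test. Markers of other cells that whole liver can hold were mostly few in reads. The cholangiocyte factor Sox9 was lower (-0.79), as 1 of 8 tested cholangiocyte genes (12.5%, near the 13.5% of all genes that were lower). Its call was lost in 6 of 18 alternatives, scaling to library size included. No red blood cell gene (0 of 6), lymphocyte gene (0 of 6) or neutrophil gene (0 of 1, S100a9) passed the threshold by edgeR's quasi-likelihood test, and at an unadjusted p under 0.05 the counts were 0, 0 and 1. Ly6g, a defining neutrophil marker, had 0 reads in all 8 libraries.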

How the data were processed

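Whole liver RNA of 4 WT and 4 Pcx L-/- mice was sequenced, and the groups were taken from the genotype labels. The authors deposited read counts per gene, with no normalization, and FPKM values. Per the labels, the submitters' processing notes name STAR 2.5, HTSeq 0.6.1, DESeq2 and the build mm10. Neither the annotation release nor the use of strand in counting is given in the labels or methods. The deposited FPKM equalled count over gene length and library total for 100% of 142384 values above 0, within a relative tolerance of 1e-06. There were 0 columns without a sample.

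Counts were tested with edgeR 4.0.16 in R 4.3.3, with TMM scaling and a quasi-likelihood F test of genotype over the 8 mice. The filter was filterByExpr with a minimum count of 10, not required in every library, and a minimum total of 15 reads. Benjamini-Hochberg adjustment ran over all 13168 genes tested, with a threshold of 0.05. The biological coefficient of variation was 0.181. Standard errors were derived from the F statistic and its sign. A normalized count is the read count divided by the effective library size and multiplied by the geometric mean of the 8 effective sizes. Symbols were matched to 34490 of 35275 identifiers (97.8%) through GENCODE M21, and older symbols through RefSeq (Ctgf as Ccn2, Tf as Trf), leaving Ahsp unmatched. The steps were tested on simulated data. Library totals of 12016242 to 20023108 reads set the precision, and low genes such as Acta2 and Timp1 have the widest counting error.

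The members, the further gene lists and the tests were chosen with earlier results of these data known. All members are named. A member is given mouse by mouse if it passed the threshold, had the highest or lowest log2 fold change of its class, was among the 3 of its class with the highest WT FPKM, or failed the filter; other members are given by range or fold change. Of the further lists, genes past the threshold are named, at most the 5 of smallest p and the extremes, except 1 that is not reported here. Alternatives were scaling (DESeq2 size factors, library size), the filter (none, or a mean of 1 CPM), DESeq2 1.42.0, limma 3.58.1 on log2(FPKM + 1) and log2(FPKM + 0.1), a replicate block, a term for the series of mouse numbers, and leaving out each mouse. A gene length offset and the interaction of genotype and number series were added after the data were seen. Same-numbered WT and Pcx L-/- mice did not deviate together (correlations from -0.131 to 0.101), so replicate numbers were not treated as pairs.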

Additional observations from a re-analysis of the deposited data

Results flagged for a closer look

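In 4 of the 74 groups of 4 mice tested, 1 mouse stood apart from the other 3, with its gap to the nearest of them, as a share of the range of the group, above Dixon's 95% critical value. Chance alone gives about 1 in 20. Csf1r was low in WT replicate 3, at 833 normalized counts (gap 0.877 of the range). Cd5l was high in Pcx L-/- replicate 3, at 2098 normalized counts (0.940). Lrat was high in WT replicate 2, at 341.3 normalized counts (0.964). Pdgfrb was low in Pcx L-/- replicate 1, at 86.81 normalized counts (0.926).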

How the results depend on the processing

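Counts of genes past the threshold were recomputed under 18 alternatives. With a replicate block 2975 genes and 2 members passed, against 3632 genes and 2 members without it, and the block is given here only because the replicate numbers did not pair the mice. It changed no call among the members. Scaling to library size moved the median log2 fold change of Kupffer members from 0.11 to 0.39 and of endothelial members from -0.13 to 0.15, while the median of all genes moved to 0.28. limma on FPKM gave 0.42 and 0.15 with a pseudocount of 1, and 0.43 and 0.15 with 0.1. A filter at a mean of 1 CPM removed Acta2 from the test and left 0 stellate members past the threshold. With the series of mouse numbers as a term, 0 Kupffer, 1 endothelial (Stab2, adjusted p = 0.0460 by edgeR) and 2 stellate members (Acta2 and Reln, 0.0475 for Reln) passed. Leaving out 1 mouse at a time gave 2109 (without Pcx L-/- replicate 4) to 4602 genes (without Pcx L-/- replicate 1). It gave 0 to 1 Kupffer, 0 to 1 endothelial and 0 to 1 stellate members, with Kdr past the threshold without WT replicate 3. The Kupffer median turned to -0.02 without WT replicate 4, and the stellate median to 0.09 without WT replicate 2. Over all alternatives, members kept their direction and side of the threshold in 595 of the values, became called in 4 and lost a call in 12, and the cause was not tested. Direction here covers members past the threshold; uncalled values near 0 changed sign, as with Dcn in 9 alternatives. The log2 fold change of Acta2, whose FPKM is under 1, was -0.35 on the log2(FPKM + 1) scale. Depth limits Acta2 (84 reads) and Timp1 (13 reads) most.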
